A study of Mus musculus with 2 samples.

Results

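The genes described here are 10 AP-1 and immediate early genes. They include the Fos family members Fos, Fosb and Fosl2 and the Jun family members Jun, Junb and Jund. The others are the related factor Atf3, and Egr1, Nr4a1 and Ier2. All 10 were chosen by gene symbol from the 38972 rows of the deposited table. Each symbol had exactly 1 row, and all 10 were among the 14455 genes measured, meaning that 1 or both libraries reached 1 CPM (the read count scaled to the library size) and the libraries held 20 or more reads of the gene between them.

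RNA came from cells isolated as fibroblasts from C57Bl/6 mouse lungs, with 1 library from myoFoxf1 KO mice (αSMA-Cre-ERT2 with Foxf1fl/fl) and 1 from bleomycin-treated Foxf1fl/fl mice without the Cre. Both genotypes carry the floxed Foxf1 alleles. The Cre is activated by tamoxifen and driven by the promoter of smooth muscle actin, so deletion is limited to cells that use that promoter. In the protocol of the series bleomycin, a drug that causes lung fibrosis, was dosed at 1 or 2 U/kg over 2 to 4 weeks and tamoxifen at 40 mg/kg on days 2 to 4. The labels do not say which regimen these cells had, whether the controls received tamoxifen, the age of the mice, how many were pooled, or how the cells were isolated. Bleomycin is absent from the title given to the knockout sample and stands 1 time in the design text, for cells of both genotypes, so its use in the knockout mice is not certain. Foxf1, the deleted gene, had 49 reads (3.61 CPM) in the knockout library and 158 reads (8.77 CPM) in the control, a log2 ratio of -1.27 (95% interval -1.77 to -0.81).

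Immediate early genes are switched on within minutes of a stimulus, from existing transcription factors and without new protein synthesis, and their transcripts are short-lived. Fos and Jun proteins pair through leucine zippers to form AP-1, a transcription factor that acts in growth, wound and stress responses. In lung and other tissues the same genes are also known to be induced while tissue is digested into single cells, so their level in isolated cells need not be their level in the animal.

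For 8 of the 10 genes the RefSeq table (GRCm38.p6) held the 250 bases before and 50 bases after the transcription start. Shown are those of Fos, Fosb, Junb and Nr4a1, which hold the motif most often found in these windows. Each reads 5′ to 3′ on the strand of its gene. Capitals mark TGACG on either strand, the core of the cyclic AMP response element bound by CREB and ATF factors, and TATAAA on either strand.
Fos (chr12:85473640-85473939, plus strand): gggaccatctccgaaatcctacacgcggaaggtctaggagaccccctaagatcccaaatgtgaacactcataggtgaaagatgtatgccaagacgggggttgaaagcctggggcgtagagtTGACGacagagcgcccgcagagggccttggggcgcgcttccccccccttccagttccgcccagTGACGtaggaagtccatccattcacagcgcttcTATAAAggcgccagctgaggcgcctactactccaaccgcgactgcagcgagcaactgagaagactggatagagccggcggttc
Fosb (chr7:19309996-19310295, minus strand): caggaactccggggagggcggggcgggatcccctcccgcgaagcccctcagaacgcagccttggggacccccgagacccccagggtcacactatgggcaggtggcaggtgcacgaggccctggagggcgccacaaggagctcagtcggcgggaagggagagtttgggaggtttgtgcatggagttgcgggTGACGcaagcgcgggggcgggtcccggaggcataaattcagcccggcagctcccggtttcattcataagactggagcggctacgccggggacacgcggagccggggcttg
Junb (chr8:84978699-84978998, minus strand): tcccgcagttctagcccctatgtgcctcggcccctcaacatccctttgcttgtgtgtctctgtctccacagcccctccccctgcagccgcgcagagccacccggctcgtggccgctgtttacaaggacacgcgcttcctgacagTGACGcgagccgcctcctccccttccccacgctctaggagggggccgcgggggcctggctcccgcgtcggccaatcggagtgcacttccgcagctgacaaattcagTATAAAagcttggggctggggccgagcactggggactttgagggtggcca
Nr4a1 (chr15:101266596-101266895, plus strand): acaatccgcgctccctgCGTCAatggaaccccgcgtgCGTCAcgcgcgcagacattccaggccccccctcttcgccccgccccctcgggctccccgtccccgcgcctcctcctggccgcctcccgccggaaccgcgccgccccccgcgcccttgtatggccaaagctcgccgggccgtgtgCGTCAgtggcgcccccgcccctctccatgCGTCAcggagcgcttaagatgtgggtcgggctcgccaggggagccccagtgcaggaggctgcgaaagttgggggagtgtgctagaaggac
TGACG occurred in 5 of the 8 windows (Fos, Fosb, Junb, Nr4a1 and Atf3), against 20.8% of all 32851 promoter windows of the same length. The windows compared were not matched for GC content, here or for the other motifs. Nr4a1 held 4 copies, Fos 2, and Fosb, Junb and Atf3 1 each. TATAAA occurred in 2 of the 8, those of Fos and Junb, against 13.6% of all windows. Its first base lay at -33 from the start in Fos, and at 1, not before the start, in Junb. None of the 8 held TGANTCA, the AP-1 site, found in 7.81% of all windows, or a CArG box, the site of serum response factor, found in 1.63%. Only exact matches within these windows were counted. Sites farther from the start, or with other letters, would be missed, and Egr1 and Ier2 had no window. The Jund window, at 46.7% GC against 58.7% to 72.3% in the others, is set at the start of the deposited gene. Its transcript in the GENCODE annotation, at 1668 bases, is shorter than the 2878 bases implied by the deposited values, so its start may differ. Both strands were searched, and no marked matches of different motifs shared a base. A match describes the letters of the window, and no binding was measured here.

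Of the 10 genes 7 were called lower in the knockout library and none higher. Over all 14455 measured genes 14.2% were called lower and 9.37% higher. Library sizes were scaled by the trimmed mean of M-values (TMM), and a gene was called when its CPM differed by 2-fold or more with a ratio of 1 outside the exact 95% interval. The median log2 ratio of the 10 genes, knockout over control, was -1.24, against 0.01 over all measured genes, and 9 of the 10 were below 0. Together the 10 genes took 33695 reads (0.223% of the library) in the knockout and 90865 reads (0.563%) in the control. The 7 called genes were the 7 with the highest GC content of the 10, and none was called once the ratios were corrected for the GC content and length of the transcripts. In bulk RNA, fewer cells that express a gene and less RNA per cell cannot be told apart. With 1 library for each genotype no difference has a replicate check, no p-value is given, and the intervals cover counting error only.

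**Figure D1:**
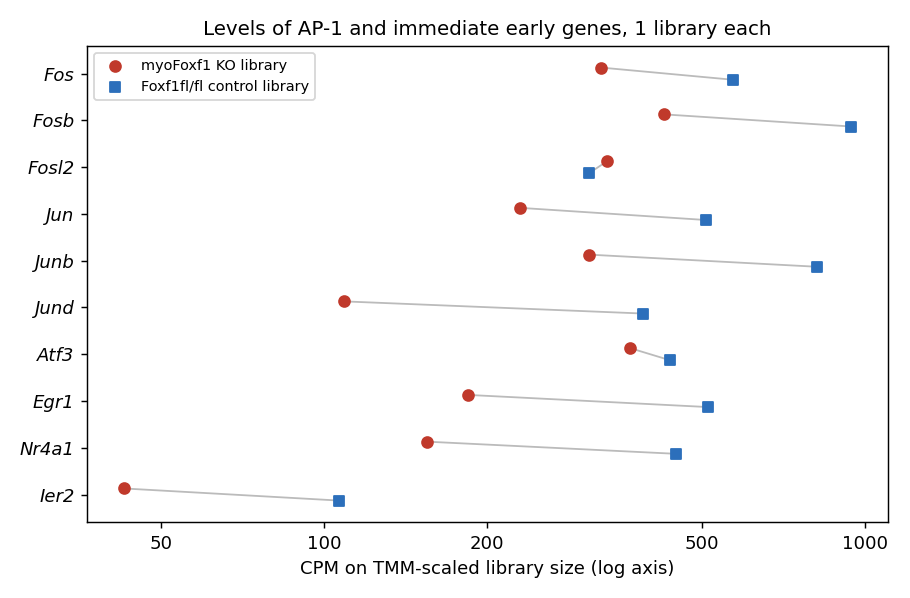
CPM (log axis) of each of the 10 genes in the myoFoxf1 KO library (circles) and the Foxf1fl/fl control library (squares), 1 library each. The control library was the higher for 9 genes, and Fosl2, at 334 CPM in the knockout and 309 CPM in the control, was the exception.

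Within the Fos family, whose members cannot pair with each other and need a Jun partner, the genes differed. Fos, on chromosome 12 from 85473890 to 85477273 in GRCm38 (positions as deposited, here and for the other genes), had 4417 reads (326 CPM) in the knockout library and 10274 reads (570 CPM) in the control. Its log2 ratio of -0.81 (95% interval -0.86 to -0.76) fell short of 2-fold and was not called. Fosb, on chromosome 7 from 19302721 to 19310045, had 5762 reads (425 CPM) in the knockout and 17001 reads (944 CPM) in the control. It was called lower with a log2 ratio of -1.15 (-1.19 to -1.11), and its CPM was the highest of the 10 genes in both libraries. Fosl2, the gene of Fra-2 on chromosome 5 from 32136472 to 32157831, had 4528 reads (334 CPM) in the knockout and 5571 reads (309 CPM) in the control. Its log2 ratio of 0.11 (0.05 to 0.17) was the only one above 0, and with scaling by total reads alone it was -0.20. The fourth family member, Fosl1, the gene of Fra-1, is not one of the 10 and was called lower, with 945 reads in the knockout and 2848 in the control (log2 ratio -1.18, -1.29 to -1.08).

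All 3 Jun genes were called lower. Jun proteins can pair with Fos proteins or with each other. Jun, on chromosome 4 from 95049034 to 95052222, had 3130 reads (231 CPM) in the knockout library and 9171 reads (509 CPM) in the control, a log2 ratio of -1.14 (-1.20 to -1.08). Junb, on chromosome 8 from 84976909 to 84978748, had 4196 reads (309.5 CPM) in the knockout and 14722 reads (817 CPM) in the control, a log2 ratio of -1.40 (-1.45 to -1.35). Jund, on chromosome 8 from 70697739 to 70700616, is the Jun gene with the steadiest expression in unstimulated cells. It had 1478 reads (109 CPM) in the knockout and 7016 reads (389.5 CPM) in the control. Its log2 ratio of -1.84 (-1.92 to -1.76) was the lowest of the 10 genes. Jun overlaps the antisense gene Junos, which had 14 reads in the knockout and 18 in the control. Without strand in these libraries, reads of such a pair cannot be told apart.

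Atf3 encodes a stress-induced factor with the same kind of leucine zipper that can pair with Jun proteins. On chromosome 1 from 191170296 to 191183340, it had 4995 reads (368 CPM) in the knockout library and 7870 reads (437 CPM) in the control. The log2 ratio of -0.25 (-0.30 to -0.19) was not called.

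The 3 genes outside the AP-1 families were all called lower. Egr1, a zinc finger transcription factor induced by growth factors and injury, lies on chromosome 18 from 34859823 to 34864984. It had 2505 reads (185 CPM) in the knockout library and 9244 reads (513 CPM) in the control, a log2 ratio of -1.47 (-1.54 to -1.41). Nr4a1, the orphan nuclear receptor Nur77, lies on chromosome 15 from 101266846 to 101274792. It had 2106 reads (155 CPM) in the knockout and 8072 reads (448 CPM) in the control, a log2 ratio of -1.53 (-1.60 to -1.46). Ier2, on chromosome 8 from 84661331 to 84662852, encodes a small nuclear protein and had the lowest CPM of the 10 in both libraries. It had 578 reads (42.6 CPM) in the knockout and 1924 reads (107 CPM) in the control, a log2 ratio of -1.32 (-1.46 to -1.19).

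The relatives of Egr1 and Nr4a1, named here after their values were seen, did not all share these ratios. Egr3 was called lower (-1.35), and Egr2 had 1349 reads in the knockout and 1873 in the control, a log2 ratio of -0.06 (-0.17 to 0.04). Egr4 had 0 reads in the knockout and 14 in the control and was not measured. Nr4a2 had a ratio of -0.09, and Nr4a3 had 7776 reads in the knockout and 7745 in the control, a ratio of 0.42 (0.37 to 0.46). Neither was called.

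Ratios between members of 1 library do not depend on how the libraries are scaled. Relative to Fosl2, Fos was lower in the knockout by a log2 difference of -0.92 (95% interval -0.995 to -0.84) and Fosb by -1.26 (-1.33 to -1.19). After the GC and length correction these differences were -0.75 for Fos and -0.88 for Fosb, and with the length correction alone they were -0.40 for Fos and -0.99 for Fosb. In FPKM, the deposited level per kilobase of gene length, Fos stood at 2.43 times Fosl2 in the knockout and 4.59 times in the control. Fosl2 made up 16.3% of the summed FPKM of the 4 Fos genes in the knockout and 8.26% in the control. The sum itself was 313.5 FPKM in the knockout and 714 FPKM in the control. Within the Jun family Junb was the most abundant gene in both libraries. It held 60.4% of the summed FPKM in the knockout and 60.1% in the control. Jund held 13.6% in the knockout and 18.3% in the control. The Jun family summed to 249.6 FPKM in the knockout and 825 FPKM in the control. These sums carry no TMM scaling. Between the libraries FPKM gave lower ratios than TMM, for Fosl2 -0.20 against 0.11. Jun was higher relative to Junb (0.26, 0.18 to 0.34) and to Jund (0.70, 0.60 to 0.80) in the knockout. With the GC and length correction both differences changed sign, to -0.45 and -0.40.

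**Figure D2:**
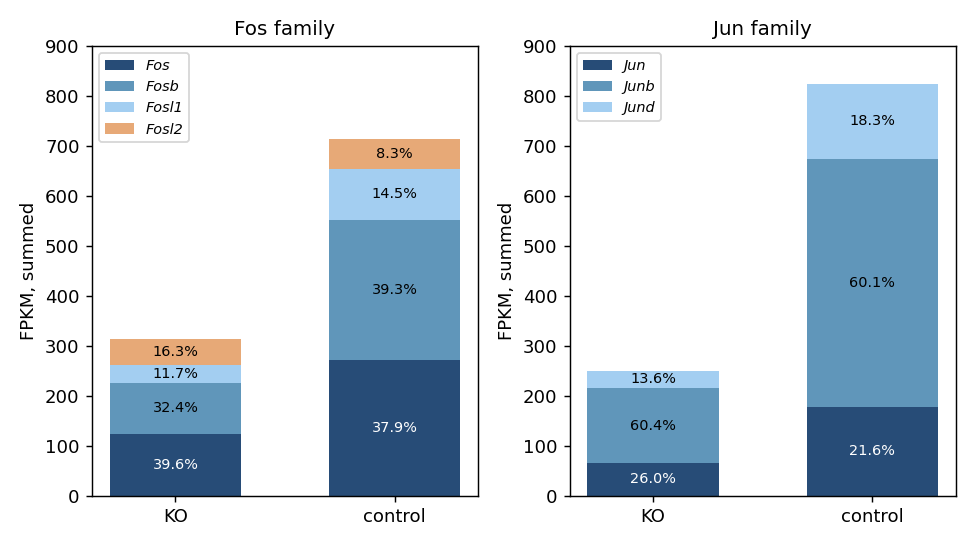
Summed FPKM of the Fos genes (left) and Jun genes (right) in the myoFoxf1 KO library and the Foxf1fl/fl control library, 1 library each, with the share of each gene in its family as a percentage. Both families summed to less in the knockout, and the share of Fosl2 was 16.3% there and 8.26% in the control. The FPKM carry no TMM scaling, which makes the knockout sums lower relative to the control than with TMM.

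Per kilobase, Atf3 (166 FPKM), Junb (151 FPKM) and Fos (124 FPKM) had the highest levels of the 10 in the knockout library, and Junb (496 FPKM), Fosb (281 FPKM) and Fos (271 FPKM) in the control. The lowest were Ier2 (25.1 FPKM) and Jund (34.0 FPKM) in the knockout, and Fosl2 (58.9 FPKM) and Ier2 (78.3 FPKM) in the control. Neighbours in these orders have no spread between animals to be set against, and Fos stood at 0.964 times Fosb in the control. In the knockout 7 of the 10 lay in the top 10% of measured genes by FPKM, all but Egr1, Jund and Ier2. In the control all 10 did. The gene length implied by the deposited counts and FPKM of Jund was 2878 bases, while its annotated transcript in GENCODE has 1668, so its FPKM depends on the gene model.

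The transcripts of all 10 genes had a GC content above the median of the measured genes, 49.7%, and the ratios of all genes fell with GC content. Measured genes with a GC content under 45% had a median log2 ratio of 0.58, and 3.83% of these 3633 genes were called lower. From 50% to 55% the median was -0.18 with 16.3% of 3782 genes called lower, from 55% to 60% it was -0.53 with 27.2% of 2589, and from 60% it was -0.96 with 47.1% of 558. Fos (51.9%), Atf3 (52.2%) and Fosl2 (53.1%), the genes below 55%, were the 3 without a call. Jun (55.5%), Fosb (56.0%), Nr4a1 (57.0%), Egr1 (57.3%), Ier2 (60.9%), Junb (62.6%) and Jund (67.1%) were the 7 called lower. The GC value of Jund is that of its annotated transcript of 1668 bases, while its deposited values imply 2878 bases. Its GC value and its corrected ratio therefore also depend on the gene model. Among measured genes of the same GC range, Nr4a1 stood at percentile 13.1, Egr1 at 14.3, Jund at 16.5 and Fos at 21.7. Fosb stood at 22.2, Jun at 22.6, Junb at 29.2, Ier2 at 32.8, Atf3 at 46.5 and Fosl2 at 68.4. The range from 60% is open, and by GC content Jund stood at percentile 99.9 of all measured genes. Its percentile within that range still holds part of the fall with GC content. What made the ratios follow GC content was not tested.

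**Figure D3:**
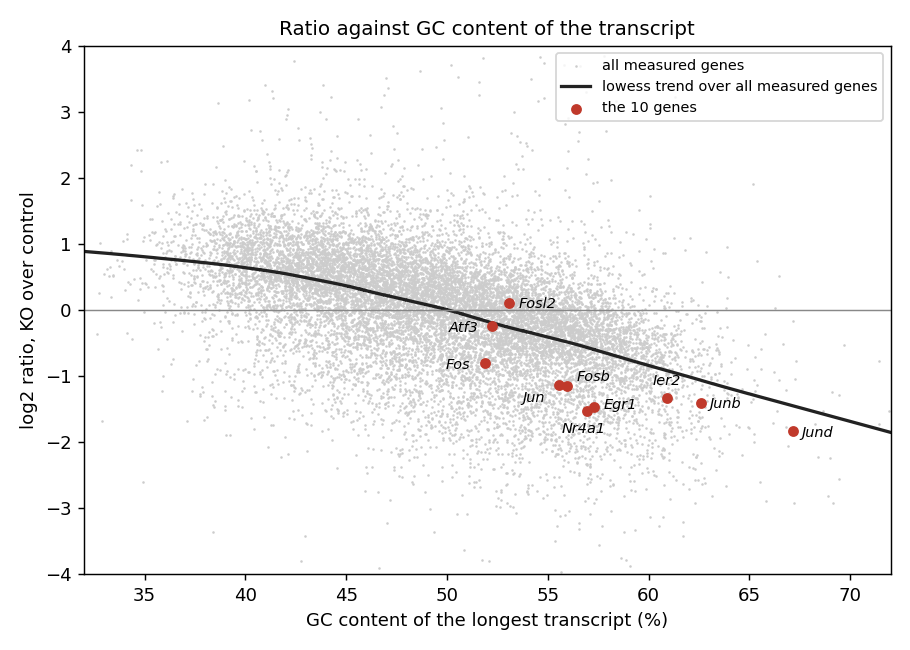
The log2 ratio of knockout over control against the GC content of the longest annotated transcript, for all measured genes with a GC value (grey), their lowess trend (line) and the 10 genes (red, named), with 69 genes outside the axes. The trend falls with GC content, Fosl2 lies above it, the other genes lie below it, and Atf3 is the nearest to it.

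After the lowess trends on GC content and length were subtracted, none of the 10 genes was called in either direction. Of the 14289 genes with a GC value 10.9% were then called lower and 5.36% higher. The median of the 10 genes was -0.42, against 0.04 over all measured genes, and 8 of the 10 were below 0. Egr1, at -0.93 (95% interval -0.99 to -0.87), and Nr4a1, at -0.90 (-0.97 to -0.84), had the lowest corrected ratios, short of 2-fold. Fosb and Jun were both at -0.68, and Fos was at -0.55. The GC-rich genes moved the most. Jund was at -0.27 after the correction, Ier2 at -0.28 and Junb at -0.23. Atf3 was at 0.05, with an interval from -0.01 to 0.10, and Fosl2 at 0.20.

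**Figure D4:**
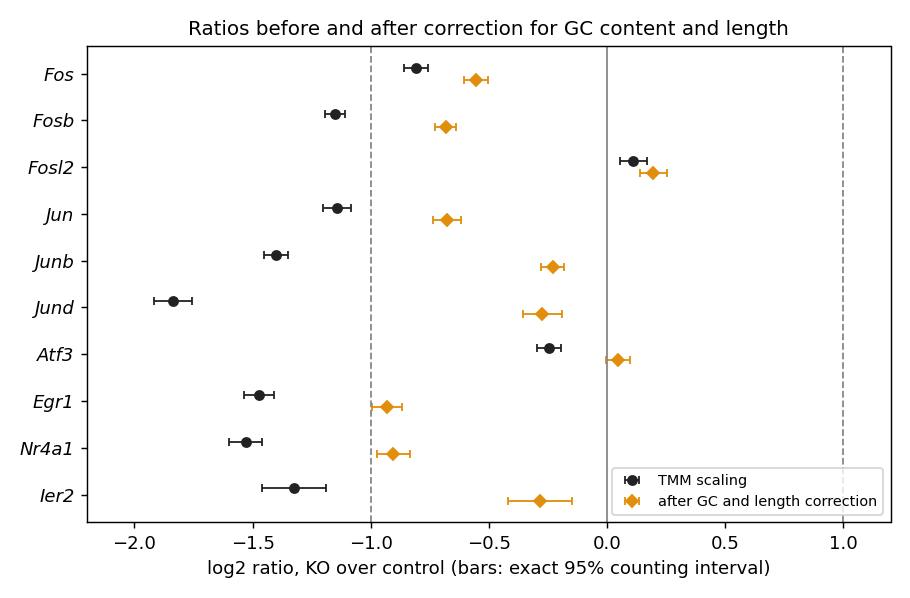
Log2 ratio of knockout over control with its exact 95% counting interval for each of the 10 genes, with TMM scaling (black circles) and after the GC and length correction (orange diamonds). Dashed lines mark 2-fold. With TMM scaling 7 genes lie past the lower line, and after the correction none does.

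Exon number and AU-rich letters, which had no part in how the genes were chosen, varied among the 10. The coding transcripts of Jun, Junb, Jund and Ier2 have a single exon in the GENCODE annotation of GRCm38, as do 2.13% of the 13699 measured coding genes. The median over these genes is 9 exons. The letters ATTTA, the core of the AU-rich elements through which proteins such as tristetraprolin shorten the life of a transcript, occurred in the 3′ UTR of 9 of the 10, all but Ier2. They occurred in 69.0% of measured coding genes, and 3 or more copies in 37.8% of them and in 5 of the 10 genes, so nothing particular to the 10 is read from these letters. Fosl2 held 8 copies in a UTR of 4653 bases, Fos and Jun 4 each, and Nr4a1 and Atf3 3 each. The windows of 30 bases with the most copies are shown for 4 genes that hold 2 copies that close together, with ATTTA in capitals and U written as T.
Fos: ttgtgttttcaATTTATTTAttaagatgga
Fosl2: aattgacATTTAttttattATTTAttttaa
Jun: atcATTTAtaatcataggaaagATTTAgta
Nr4a1: gATTTAtatttgtgtattttcctggATTTA
The copies of Fos overlap by 1 base.

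Genes around the AP-1 response were read from 6 lists, of which 136 genes were measured. Proteins related to or pairing with Fos and Jun had a median log2 ratio of -0.02. Of 19 measured genes of 20 listed, 3 were called lower, namely Mafa (-1.77, on 5 reads in the knockout and 24 in the control), Fosl1 and Atf5 (-1.17). Higher were 2, namely Creb5 (1.31) and Batf2 (1.14). Both shares are near those over all measured genes, 14.2% lower and 9.37% higher. After the correction no gene of this list was called lower, and Batf2 (1.85) was the only one higher.

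Other immediate early genes had a median of -0.28, with 10 of 33 called lower and 1 higher. The shares over all measured genes were 14.2% lower and 9.37% higher. Ier5l (-2.66), Cebpd (-2.57), the synaptic gene Arc (-1.85) and Klf2 (-1.76), a factor of endothelial cells and lymphocytes, had the lowest ratios. Of the 10 lower calls 8 remained after the correction, where 10.9% of all genes were called lower. Cebpd was at -2.44, Ier5l at -1.44 and Arc at -1.08. Klf2, at -0.68, was not among the 8. The others of the 8 were Myc (-1.09), Cyr61 (-1.09), Btg2 (-1.19), Ctgf (-1.57) and Egr3 (-1.26), named after their values were seen.

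Among the MAP kinases and serum response factors that switch the immediate early genes on, 4 of 29 measured genes were called lower and 3 higher, with a median of 0.23. These shares are near those over all measured genes, 14.2% lower and 9.37% higher. Mapk10 (2.89, on 25 reads in the knockout and 4 in the control) and Mkl2 (1.46), a partner of serum response factor, were higher. Mapk11 (-1.81) and Mapk12 (-1.34), both of the p38 family, were lower. Mapk11 (-1.27) was the only lower call of this list that remained after the correction, and Mapk12 was at -0.75. Srf itself was called lower with 527 reads in the knockout and 1767 in the control (-1.33), and was at -0.06 after the correction, with a transcript of 64.4% GC.

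Of the phosphatases and other inhibitors that end the response, 5 of 18 were called lower and 1 higher, with a median of -0.42. Among all measured genes 14.2% were called lower and 9.37% higher. Dusp2 (-1.30), Spry1 (-1.28) and Spry4 (-1.26) were lower and Spred1 (1.25) higher. Of these calls only that of Spry4, at -1.23, remained after the correction. With a gene not called before, 2 of the list were then called lower and none higher. That lower share is near the 10.9% over all genes after the correction, where 5.36% were called higher. Dusp1, the MAP kinase phosphatase induced together with Fos and Jun, had 6770 reads in the knockout and 9709 in the control, a ratio of -0.11 that was not called.

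Genes with AP-1 sites in textbook accounts had a median of 0.52, with 8 of 22 called higher, 1, Hbegf at -1.01, lower, and 13 not called. Among all measured genes 9.37% were called higher and 14.2% lower. Higher calls of the list were 5 with total-read scaling and with either FPKM scale. Its median was then 0.21 with total reads and 0.13 with FPKM. Mmp12 (2.73), Mmp13 (2.59), Spp1 (2.35) and Cxcl2 (1.78) had the highest ratios. After the correction, where 5.36% of all genes were called higher, 6 of the 8 higher calls of the list remained. Macrophages can express several genes of this list. The 13 macrophage markers summed to 45140 CPM in the knockout and 22222 CPM in the control, with 6 called higher and none lower, and their part in this result was not tested.

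Heat shock genes, which tissue digestion is also known to raise, had a median of -0.29, with 4 of 15 called lower and none higher. The shares over all measured genes were 14.2% lower and 9.37% higher. Hspb1 (-3.41), Hspb8 (-1.55), Hspa1b (-1.48) and Hspa1a (-1.45) were the 4 called lower. The last pair are near-identical copies whose reads cannot be assigned with certainty. After the correction Hspb1 was at -2.28 and Hspb8 at -1.19, still called, and Hspa1b at -0.77 and Hspa1a at -0.68 were not. The median of the list was then -0.53, with 3 of 15 called lower, Hspb1 and Hspb8 among them, and none higher. Of all corrected genes 10.9% were called lower and 5.36% higher. Hsp90aa1 (0.06) and Hspa8 (0.06), the abundant chaperones, were not called.

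**Figure D5:**
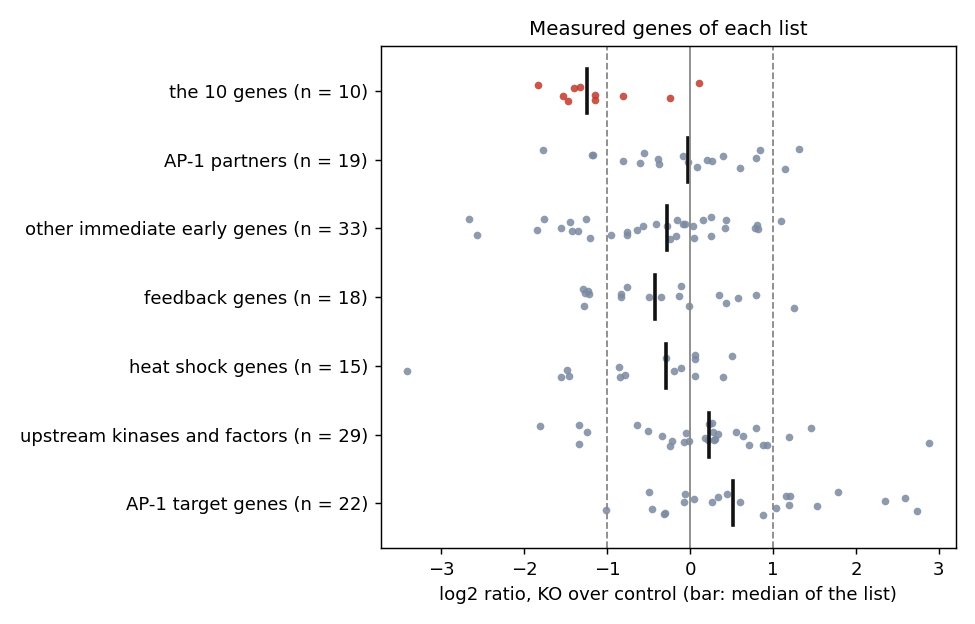
Log2 ratio of knockout over control for every measured gene of each list, 1 point a gene, with the median of the list as a black bar, dashed lines at 2-fold, and points spread vertically for sight. The 10 genes have a median of -1.24, the other immediate early genes -0.28 and the AP-1 target genes 0.52.

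The libraries held 15122824 reads in the knockout and 16145959 in the control. Both held markers of several cell types, and no listed marker was at 0 in either. Fibroblast markers were present but went both ways, with 8 of 15 called lower and 2 higher. They summed to 6251 CPM in the knockout and 5018 CPM in the control, of which Vim made up 3687 CPM in the knockout and 2870 CPM in the control. Epithelial markers, of which Scgb1a1 was the most abundant, were lower for 9 of 12 (5790 CPM in the knockout, 16681 CPM in the control). Mesothelial markers, with Krt19 the most abundant, were lower for 7 of 7 (242 CPM in the knockout, 754 CPM in the control). Endothelial markers, with Vwf, were lower for 4 of 10 (165 CPM in the knockout, 298 CPM in the control), and erythroid markers, with Hbb-bs, for 4 of 5 (738 CPM in the knockout, 1989 CPM in the control). Lymphocyte markers, with Cd79a, were lower for 4 of 10 and higher for 2 (175 CPM in the knockout, 441 CPM in the control). Neutrophil markers, with S100a9, were higher for 2 of 6 (259 CPM in the knockout, 96.3 CPM in the control). Macrophage markers, with Lyz2, had the highest sum of the marker lists in both libraries (45140 CPM in the knockout, 22222 CPM in the control). Of these 13 markers 6 were higher and none lower. The sums depend on which genes are listed, but the libraries were not of fibroblasts alone. After the GC and length correction no erythroid marker was called, and 6 epithelial, 6 mesothelial, 4 endothelial and 8 fibroblast markers were called lower. So were 4 lymphocyte markers and 1 smooth muscle marker. Called higher after it were 8 of 13 macrophage and 3 of 6 neutrophil markers, and 1 each of the lymphocyte, fibroblast and smooth muscle markers. Over all measured genes 14.2% were called lower before the correction and 10.9% after it. Higher calls were 9.37% before it and 5.36% after it. Smooth muscle markers, with Acta2, had 1 call in each direction among 7 (68.6 CPM in the knockout, 84.4 CPM in the control). Immediate early genes can be induced in most cell types. The part of the cell makeup in the ratios of the 10 genes was not tested. Measured relative to the median of the fibroblast markers, none of the 10 genes was called lower and Fosl2 was called higher, at 1.12. That median, -1.01, was subtracted from every gene, after which 350 of all genes were called lower and 7335 higher. The summed CPM of the same markers was higher in the knockout, so this result depends on the use of their median.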

How the data were processed

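RNA was sequenced from 1 library per genotype, prepared with the Nextera XT kit, which does not keep strand, per the labels' protocols. The authors deposited 1 table that holds, for both libraries, estimated counts and FPKM of each gene. TopHat, Cufflinks, GRCm38 and mm10 are named in the submitters' processing notes, with no roles or versions given. The deposited counts were not whole (beyond a tolerance of 1e-06) for 73.1% of genes with reads in the knockout and 76.0% in the control, and were rounded. The deposited FPKM were used for levels between genes and in alternatives.

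TMM scaling used edgeR 4.0.16 (R 4.3.3). Log2 ratios, knockout over control, had 0.5 added to the counts in proportion to library size. Exact conditional (Clopper-Pearson) 95% intervals from scipy 1.17.1 cover counting error only, since reads that lack molecular identifiers are no independent molecules. All genes of the table were measured, called and corrected together. The correction subtracted lowess trends from statsmodels 0.14.6 (span 0.3), first on GC content, then on log2 length, of the longest GENCODE M21 transcript, known for 98.9% of measured genes. Ratios between members used the conditional odds ratio of their reads. Of the gene IDs 37570 were found in GENCODE M21, and Adgre1 and Chil3 were matched by ID. The ratios, intervals and fold calls were tested on simulated counts that held no GC or length trend. Scaling, the correction and the ratios between members were not tested in this way. Alternatives were total-read scaling, size factors of DESeq2 1.42.0, log2 of FPKM plus 1 or 0.1, other filters, prior and fold rules, each trend alone and, added after seeing the data, ratios relative to the fibroblast markers.

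The members and gene lists were chosen with earlier results of these data known. Named were all 10 members, Foxf1, up to 4 called genes per list with the largest ratios, and the most abundant marker of each cell type. Genes outside this rule, chosen after their values were seen, were Batf2, Srf, Dusp1, Hbegf, Hsp90aa1, Hspa8 and those identified as such in the text.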

Additional observations from a re-analysis of the deposited data

How the results depend on the processing

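The number of the 10 genes called lower was 7, and it was 6 to 8 under total-read scaling, DESeq2 size factors, both FPKM scales, both count filters, the other prior count, the length correction alone, the 1.5-fold rule and an interval that excludes 2-fold. It was 0 with the GC correction, alone or with length, with the 4-fold rule, and relative to the fibroblast markers, whose own median was -1.01, and there 1 gene was called higher. Signs changed for Fosl2 (-0.20 with total reads, FPKM plus 1 and FPKM plus 0.1, and -0.19 with the length correction), for Atf3 (0.046 with GC and length, 0.76 relative to fibroblast markers) and for Fos (0.20 relative to them). Total-read scaling moved the median of all genes to -0.32.

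Between members, Jun over Junb became -0.45 with GC and length, -0.35 with GC and 0.014 with length, and Jun over Jund -0.40 with GC and length and -0.30 with GC. Junb over Jund became 0.043 and 0.049 with the same corrections, and with GC alone Fos over Fosb became 0.022 and Fos over Jun 0.047. The 2 ratios over Fosl2 kept their sign in every alternative run, and Fos over Fosl2 was -0.40 with the length correction.

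Over all genes, 2053 were called lower and 1355 higher. Lower calls were 3212 with total reads, 911 at 10 CPM, 3390 at 1.5-fold, 397 at 4-fold, 932 with an interval that excludes 2-fold and 350 relative to fibroblast markers. Higher calls were 587 with total reads, 313 with FPKM plus 1, 502 with FPKM plus 0.1, 766 with GC and length, 765 with GC, 3193 at 1.5-fold, 174 at 4-fold, 714 with an interval that excludes 2-fold and 7335 relative to fibroblast markers. Over the 6 gene lists together, 27 were lower and 15 higher. Lower calls were 14 with GC, alone or with length, and 3 at 4-fold and relative to fibroblast markers. Higher calls were 7 with total reads, 5 with FPKM plus 1, 6 with FPKM plus 0.1, 29 at 1.5-fold, 4 at 4-fold and 62 relative to fibroblast markers. Beyond what each construction fixes, the cause was not tested. No paired analysis was possible because each genotype has 1 library, and no library could be left out. Depth did not limit the 10 genes, of which Ier2 had the fewest reads, 578 in the knockout.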

Other observations

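Some immediate early genes, chosen after their values were seen, stood at the other end of the ratios. Sgk1, a kinase induced by glucocorticoids and serum, had 2037 CPM in the knockout library and 949 CPM in the control, and was called higher with a log2 ratio of 1.10 (95% interval 1.07 to 1.13), or 1.01 after the GC and length correction. It was not called with total-read scaling. Klf6, a zinc finger factor, had 1528 CPM in the knockout and 869 CPM in the control, a ratio of 0.81 that was not called and was 0.25 after the correction. Btg1, an inhibitor of proliferation, had 1915 CPM in the knockout and 1112 CPM in the control (0.78, corrected 0.21). Mcl1, which protects cells from apoptosis, had 1470 CPM in the knockout and 842 CPM in the control (0.80, corrected 0.70). The transcripts of Klf6 (42.4% GC), Btg1 (43.1%), Sgk1 (48.6%) and Mcl1 (48.7%) all lay below the median GC content of measured genes. Cebpb, an immediate early factor of 67.2% GC, close to that of Jund, had 4332 reads in the knockout and 6432 in the control. Its ratio was -0.16 before the correction and 1.41, called higher, after it.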
